A study of Homo sapiens with 4 samples.

Results

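The tumor necrosis factor (TNF) family of ligands and receptors was examined in the established human embryonic stem cell line H9, with TNFSF9 as a transcript of special interest to the study. Members were the genes whose symbol is TNF, LTA, LTB, FAS, FASLG, CD27, CD40 or CD70, or follows the numbered TNFSF and TNFRSF names, which gave 40 of the 60671 genes in the deposited table. The members were 16 ligands and 24 receptors. The rule reads symbols alone, though it was set with earlier results of these data known.

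Poly(A)+ RNA was sequenced from 4 libraries, 2 of control H9 cells and 2 of H9 cells labelled as CFIm25 knockout with overexpression of 3Flag-CFIm25, called KO+OE here. CFIm25, encoded by NUDT21, is a subunit of cleavage factor Im, which binds pre-mRNA and helps choose the site where it is cut and polyadenylated. All cells were grown in mTeSR medium with no treatment. The series title gives the edited cells as a knockdown instead. The study describes its edited lines as single clones that keep a low level of CFIm25 protein lacking part of its N terminus, and its rescue as re-expression of a Flag-tagged CFIm25 from a lentiviral vector with an EF1 promoter. It describes mock controls as clones that received an empty CRISPR vector, whereas the labels call these samples control only. The comparison therefore sets rescued cells against control cells. By the study's account the rescue was made in a single edited line, which the labels do not name. Traits of that line cannot be told apart from effects of the group. Libraries of edited cells without rescue were not analysed here, so a change by the edit itself was not tested. The labels do not say whether the 2 libraries of a group came from separate cultures, so p-values measure the spread between these libraries, which may be technical.

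TNF ligands are mostly trimeric type II membrane proteins that act on a neighbouring cell while anchored or after being shed. Their receptors fall into death domain receptors, which can recruit FADD and caspase-8 or TRADD, receptors that bind TRAF adaptors and lead to NF-κB and JNK signalling, and decoys that bind ligand without a working cytoplasmic domain. Most of the family was described in immune cells. TNFSF9, also called 4-1BBL or CD137L, is the ligand of TNFRSF9, a costimulatory receptor of activated T cells.

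All levels are in TPM, a unit in which reads are divided by transcript length and every library is brought to about the same sum, so that levels can be set side by side between genes. Each library summed to between 986853 and 987078, and mitochondrial genes took 21.0% to 22.1% of it. The deposited values hold no read counts, so the depth behind each value is unknown. NUDT21 was 160.67 and 152.2 TPM in control and 162.09 and 156.6 TPM in KO+OE. The groups overlapped. These values do not separate endogenous from re-expressed transcript. All 8 embryonic stem cell markers were above 1 TPM, with summed levels of 3408 to 3439 TPM per library. POU5F1 alone gave most of this, at 2163.82 to 2212.38 TPM, while NANOG was 15.85 to 19.89 TPM and SOX2 18.19 to 19.36 TPM. Of 10 blood cell markers, PTPRC and MS4A1 were listed at 0 in all 4 libraries. Of the marker lists of other cell types, endothelial cell markers summed to 9.68 to 10.31 TPM, trophoblast markers to 17.41 to 21.66 TPM, fibroblast markers to 79.57 to 83.73 TPM and germ layer markers to 80.13 to 83.4 TPM. Single genes carried most of these sums, with KDR at 7.79 to 8.37 TPM, KRT7 at 17.32 to 20.61 TPM, COL1A1 at 53.86 to 55.6 TPM and NES at 79.59 to 82.77 TPM. LUM, CGA and SOX17 were listed at 0 throughout.

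A member was called expressed when its mean over the 4 libraries reached 1 TPM. This held for 17 of the 40 members (42.5%), against 55.3% of 18924 protein-coding genes. By role, 5 of 16 ligands, 5 of 6 death domain receptors, 2 of 4 decoys and 5 of 14 TRAF-binding receptors were expressed. Of the other 23 members, 16 had a value above 0 in at least 1 library and 7 were listed at 0 in all 4. The latter were the ligands FASLG, TNFSF8, TNFSF10 and TNFSF18 and the receptors TNFRSF4, TNFRSF13B and TNFRSF17. Summed over the family, the level was 339.84 and 352.11 TPM in control and 340.63 and 342.38 TPM in KO+OE. Ligands gave only 14.82 to 19.09 TPM of these sums, so the family's transcripts in these cells were mostly those of receptors.

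**Figure D1:**
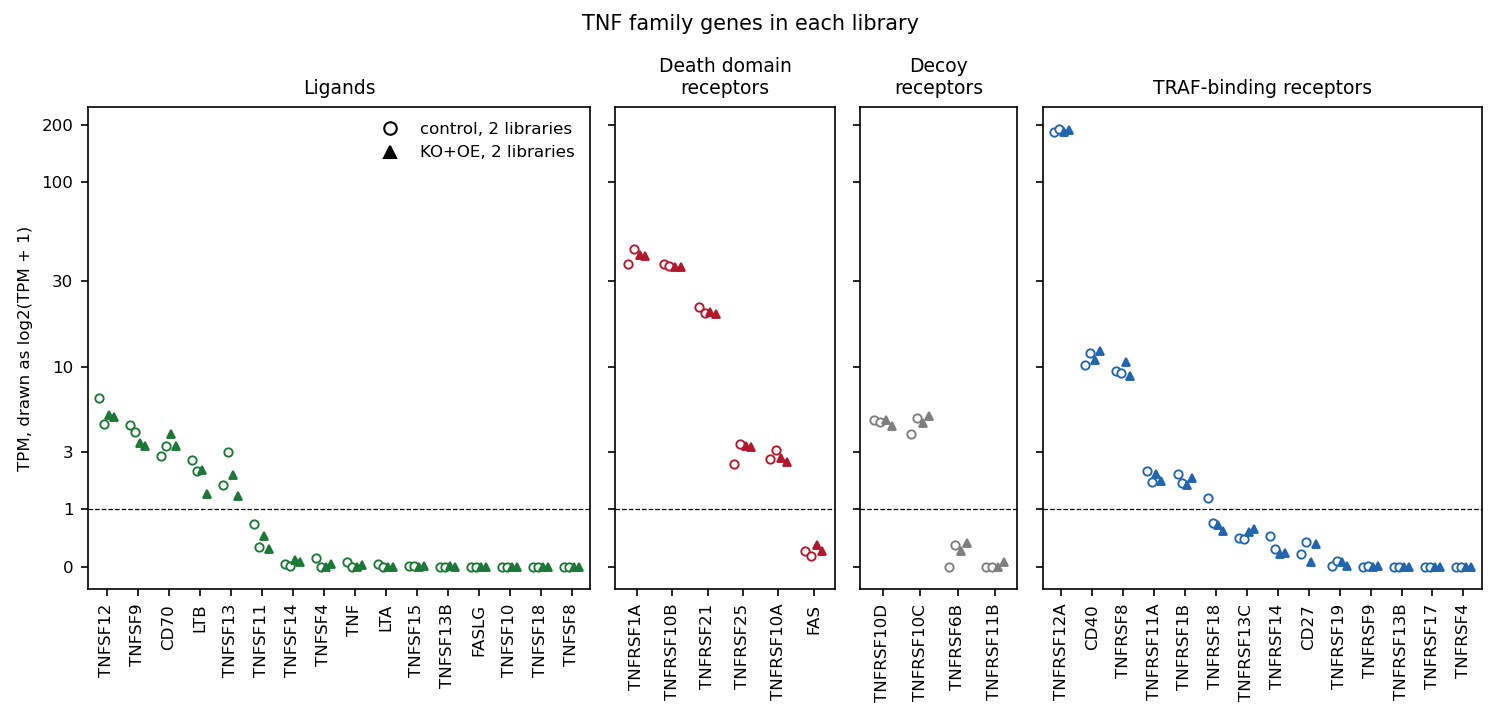
Level of each of the 40 members in each library, on a log2(TPM + 1) axis labelled in TPM, with open circles for the 2 control libraries, filled triangles for the 2 KO+OE libraries and a dashed line at 1 TPM. TNFRSF12A lies far above all others at 183.06 to 190.64 TPM, and 11 of the 16 ligands have a mean under 1 TPM.

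TNFSF9 was expressed at a low level and was lower in KO+OE than in control by an amount that did not pass the test. It was 4.48 and 4.06 TPM in control and 3.41 and 3.29 TPM in KO+OE. Both KO+OE libraries lay below both control libraries. In bulk RNA, fewer cells with a transcript and less transcript per cell cannot be told apart. The mean was 4.27 ± 0.30 TPM (SD, n = 2) in control and 3.35 ± 0.085 TPM (SD, n = 2) in KO+OE. The log2 fold change, KO+OE minus control on the log2(TPM + 1) scale, was -0.28 (SE 0.13, 95% confidence interval -0.60 to 0.05), with a limma p of 0.0785 and an adjusted p of 0.931 over the 12319 genes tested. As a ratio of TPM + 1, the interval runs from 0.661-fold to 1.03-fold. With 2 libraries against 2, an exact two-sided permutation test cannot give a p below 0.333. The gap between replicates was 0.12 in control and 0.040 in KO+OE on the same log2 scale, both smaller than the difference between groups. Groups that do not overlap, with KO+OE lower, were found in 19.6% of all genes tested.

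In the RefSeq annotation of GRCh38.p14, TNFSF9 lies on chromosome 19, positions 6531026 to 6535924, followed on the chromosome by CD70 at 6581648 to 6591150 and TNFSF14 at 6661253 to 6670588. Its canonical transcript has 1634 bases in 3 exons, of which bases 12 to 773 are coding. The primers with which the study measured TNFSF9 by RT-qPCR are shown because they place that assay on the transcript whose TPM is given here. They are written 5′ to 3′.
TNFSF9-F1: ggctggagtctactatgtcttct
TNFSF9-R1: acctcggtgaagggagtcc
The forward primer matched bases 422 to 444 of the transcript, and the reverse primer matched the opposite strand of bases 750 to 768. Both lie in exon 3, within the coding sequence, and bound a product of 347 bases. An exact match of either primer was found in transcripts of 1 gene, TNFSF9.

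The start regions of TNFSF9 and of its receptor TNFRSF9 are shown because the ligand was expressed and the receptor was not. TNFRSF9 was listed at 0 in 1 library of each group and at 0.01 TPM in the other. Each sequence is the 250 bases before the annotated start, from RefSeq on GRCh38.p14, 5′ to 3′ in the direction of transcription. That of TNFSF9 is chr19:6530776-6531025 on the plus strand, and that of TNFRSF9 is chr1:7940840-7941089 on the minus strand.
TNFSF9: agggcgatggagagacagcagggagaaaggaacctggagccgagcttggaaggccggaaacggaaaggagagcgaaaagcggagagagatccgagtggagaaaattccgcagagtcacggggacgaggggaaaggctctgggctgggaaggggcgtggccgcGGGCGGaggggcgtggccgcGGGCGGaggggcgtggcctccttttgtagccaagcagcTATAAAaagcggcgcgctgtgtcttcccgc
TNFRSF9: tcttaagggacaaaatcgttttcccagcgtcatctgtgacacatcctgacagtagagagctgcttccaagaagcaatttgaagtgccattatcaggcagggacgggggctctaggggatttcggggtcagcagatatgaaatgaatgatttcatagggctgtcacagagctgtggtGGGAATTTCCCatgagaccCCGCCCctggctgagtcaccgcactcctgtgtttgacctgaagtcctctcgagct
Capitals mark matches to TATAAA, to GGGCGG, the core of the GC box, on either strand, and to the κB consensus. These motifs were chosen after the sequences had been read. The TNFSF9 region is 64.4% GC and holds TATAAA from 30 to 25 bases before the start and GGGCGG at 88 to 83 and at 68 to 63 bases before it. The TNFRSF9 region is 51.6% GC and holds a κB consensus at 74 to 65 bases before the start, which overlaps a match on the other strand at 73 to 64, and GGGCGG on the opposite strand at 55 to 50. Of 35116 such regions of 250 bases, counting both strands, 10.7% held TATAAA, 42.6% GGGCGG and 5.21% the κB consensus. These are matches of letters, and no occupancy was measured.

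The other expressed ligands were TNFSF12, CD70, LTB and TNFSF13, none of which passed the test between groups. TNFSF12, or TWEAK, had the highest level of any ligand, at 6.58 and 4.6 TPM in control and 5.18 and 5.08 TPM in KO+OE. Its KO+OE values lay between the 2 control values. TNFSF13, or APRIL, a survival ligand of B-lineage cells, was 1.68 and 2.96 TPM in control and 2.02 and 1.35 TPM in KO+OE. The groups overlapped, and its 95% interval, -0.96 to 0.37 on the log2 scale, was the widest among the tested members. The log2 fold change of TNFSF13, -0.29, became -0.57 when replicate 1 of control was left out, and -0.0086 when replicate 2 was. It became -0.47 or -0.11 when replicate 1 or replicate 2 of KO+OE was left out. TNFSF12 and TNFSF13 neighbour each other on chromosome 17, at 7549058 to 7557881 and 7558282 to 7561601, and both share exons with the annotated read-through gene TNFSF12-TNFSF13. Of the windows of 100 bases in the canonical transcript, 35.5% for TNFSF12 and 68.2% for TNFSF13 were also in transcripts of the read-through gene. Its own row stood at 1.86 and 2.94 TPM in control and 1.89 and 2.01 TPM in KO+OE. How the reads were divided among these 3 rows is not given in the sources used here, so their levels are uncertain.

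CD70, the ligand of the lymphocyte receptor CD27, was 2.78 and 3.27 TPM in control and 3.92 and 3.29 TPM in KO+OE. It was the only tested member with both KO+OE libraries above both control libraries, by 0.02 TPM at the nearest pair. Groups apart in that direction were found in 14.5% of all genes tested. Its log2 fold change was 0.19 (95% interval -0.19 to 0.58), with a limma adjusted p of 0.948. Leaving out replicate 1 of control gave 0.11, and leaving out replicate 1 or replicate 2 of KO+OE gave 0.095 or 0.29. LTB, the membrane-bound partner of lymphotoxin α, was 2.63 and 2.19 TPM in control and 2.22 and 1.41 TPM in KO+OE. The groups overlapped, and the gap within KO+OE, 0.42 on the log2 scale, was larger than the difference between groups, -0.29. That difference became -0.50 when replicate 1 of KO+OE was left out, and -0.080 when replicate 2 was.

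The remaining 11 ligands had means under 1 TPM. TNFSF11, or RANKL, the osteoclast differentiation factor, was the highest of them at 0.25 to 0.67 TPM. TNF itself was 0.06 and 0 TPM in control and 0 and 0.03 TPM in KO+OE, and LTA was listed at 0.04 TPM in 1 control library and at 0 in the other 3. LTA, TNF and LTB form a row on chromosome 6, from 31560610 to 31582425, in which only LTB was expressed. TNFSF4, TNFSF13B, TNFSF14 and TNFSF15 did not exceed 0.12 TPM in any library.

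Death domain receptors were the role with the largest share expressed. TNFRSF1A, the main receptor of TNF, was 37.11 and 44.59 TPM in control and 41.25 and 40.83 TPM in KO+OE, with the KO+OE values between those of control. TNFRSF10B, the TRAIL receptor DR5, was 36.76 and 36.09 TPM in control and 35.72 and 35.62 TPM in KO+OE. The TNFRSF10B groups did not overlap, with KO+OE lower, and the log2 fold change was -0.03 (95% interval -0.16 to 0.10, limma adjusted p 0.985). TNFRSF21, or DR6, was 21.73 and 20.2 TPM in control and 20.31 and 19.83 TPM in KO+OE, and its groups overlapped. The ranges of TNFRSF1A and TNFRSF10B did not overlap, and TNFRSF21 lay below both in every library.

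TNFRSF25, or DR3, and TNFRSF10A, the TRAIL receptor DR4, were expressed at far lower levels. TNFRSF25 was 2.45 and 3.38 TPM in control and 3.28 and 3.21 TPM in KO+OE. TNFRSF10A was 2.64 and 3.1 TPM in control and 2.71 and 2.53 TPM in KO+OE. The groups overlapped for both genes, and the 2 genes overlapped with each other. FAS, which triggers apoptosis when bound by FASLG, was under 1 TPM, at 0.22 and 0.15 TPM in control and 0.3 and 0.22 TPM in KO+OE.

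The TRAIL decoys TNFRSF10C (DcR1) and TNFRSF10D (DcR2) were expressed alongside the signalling receptors. TNFRSF10C was 3.97 and 4.99 TPM in control and 4.61 and 5.14 TPM in KO+OE. TNFRSF10D was 4.83 and 4.68 TPM in control and 4.82 and 4.47 TPM in KO+OE. The ranges of the 2 decoys overlapped, as did the groups within each. The 4 TNFRSF10 genes lie within 23020133 to 23225102 on chromosome 8, while TRAIL itself, TNFSF10, was listed at 0 in all libraries. In the canonical transcript of TNFRSF10C, 24.2% of windows were shared with 2 other annotated genes that have no symbol, so its level is uncertain.

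The other decoys were not expressed. TNFRSF11B, or osteoprotegerin, was listed at 0.07 TPM in 1 KO+OE library and at 0 in the rest. TNFRSF6B, or DcR3, was 0 and 0.3 TPM in control and 0.22 and 0.34 TPM in KO+OE. The whole canonical transcript of TNFRSF6B lies within the read-through gene RTEL1-TNFRSF6B, whose row stood at 1.53 and 0.43 TPM in control and 0.96 and 0.88 TPM in KO+OE, so TNFRSF6B cannot be told apart from it by such reads.

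TNFRSF12A, or Fn14, the receptor of TNFSF12, had the highest level of the family. It was 184.61 and 190.64 TPM in control and 183.06 and 188.66 TPM in KO+OE, and the groups overlapped. It gave 53.7% to 55.1% of the family's summed level in each library and ranked between 584 and 610 among all genes. Its log2 fold change was -0.01 (SE 0.037, 95% interval -0.11 to 0.08, limma adjusted p 0.989), the narrowest interval among the tested members. TNFRSF12A lies on chromosome 16 at 3020368 to 3022383.

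Other TRAF-binding receptors were lower by an order of magnitude or more. CD40, a receptor of antigen-presenting cells, was 10.32 and 12.07 TPM in control and 11.06 and 12.38 TPM in KO+OE. TNFRSF8, or CD30, known as a marker of embryonal carcinoma and of activated lymphocytes, was 9.53 and 9.22 TPM in control and 10.74 and 8.88 TPM in KO+OE. For both genes the groups overlapped. TNFRSF11A, or RANK, was 2.18 and 1.78 TPM in control and 2.06 and 1.81 TPM in KO+OE, and TNFRSF1B, or TNFR2, was 2.05 and 1.74 TPM in control and 1.69 and 1.92 TPM in KO+OE. TNFRSF11A and TNFRSF1B overlapped between groups and with each other.

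Of the other 9 TRAF-binding receptors, TNFRSF18, or GITR, came nearest to the limit of 1 TPM. It was 1.29 and 0.69 TPM in control and 0.66 and 0.54 TPM in KO+OE, so that 1 control library alone exceeded the limit. TNFRSF11A and TNFRSF1B were the members just above the limit for receptors. TNFRSF13C, the BAFF receptor, was 0.4 to 0.59 TPM and TNFRSF14, or HVEM, 0.17 to 0.45 TPM. CD27 was 0.17 and 0.36 TPM in control and 0.06 and 0.32 TPM in KO+OE. CD27 overlaps CD27-AS1 on the opposite strand over 18.6% of its windows, and that gene stood higher, at 7.46 and 9.92 TPM in control and 6.77 and 5.62 TPM in KO+OE. Whether the counting used strand is not given in the sources used here. Smaller overlaps with genes on the opposite strand were found for TNFRSF14 (14.2%), TNFRSF25 (10.1%, with ESPN), TNFRSF10B (7.13%, with RHOBTB2) and TNFRSF10A (6.41%).

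Across the family, none of the 17 tested members differed between KO+OE and control at an adjusted p under 0.05 by limma, and none had an unadjusted p under 0.05. The background was 1 gene of 12319 (0.00812%) by the adjusted and 656 genes (5.33%) by the unadjusted p. A limma fit without the mean-dependent prior gave 1 member at an unadjusted p under 0.05, TNFSF9, and none by the adjusted p. Adjusted p-values of the members in the main comparison ran from 0.931 to 0.991. Of the 17, 6 had a higher and 11 a lower fitted level in KO+OE, and the median log2 fold change was -0.03, beside -0.01 over all genes tested. The groups did not overlap for 2 members with lower and 1 with higher values in KO+OE, against 19.6% and 14.5% of all genes tested. In 15 of the 17, a gap between replicates exceeded the difference between groups, the exceptions being TNFSF9 and TNFRSF10B.

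The intervals bound how large a difference between these 2 groups of libraries could have gone unseen, given a spread that may be technical. For all 17 tested members the 95% interval lay within a 2-fold change in either direction on the log2(TPM + 1) scale, as it did for 92.6% of all genes tested. For 14 of the 17 it lay within 1.5-fold, and the exceptions were TNFSF9, LTB and TNFSF13. This scale understates changes of genes near 1 TPM. The 2-fold bound did not hold under every alternative. The lower limit of TNFSF13 was -1.35 with a pseudocount of 0.1, -1.06 with the replicate block and -1.02 without the mean-dependent prior. It was also -1.08 with no filter on low values and -1.02 after rescaling without mitochondrial genes. The lower limit of LTB was -1.17 with a pseudocount of 0.1. In some fits that left out 1 library, the lower limits of both genes also passed the 2-fold bound.

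**Figure D2:**
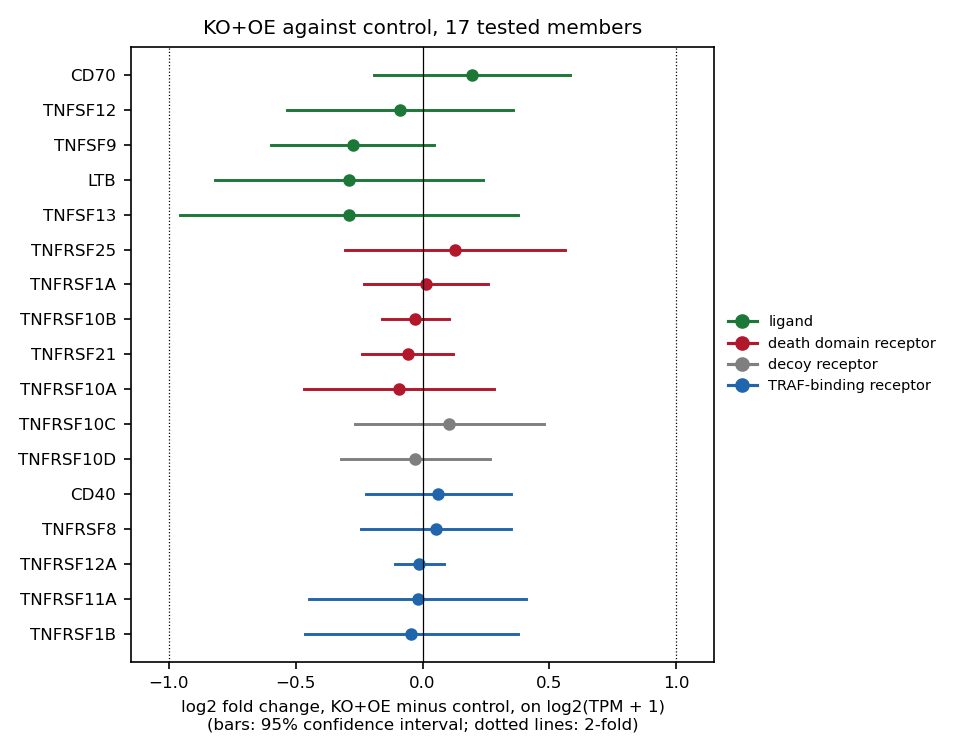
Log2 fold change of the 17 tested members, KO+OE minus control on the log2(TPM + 1) scale, with points for limma's estimate from 2 libraries a group, bars for the 95% confidence interval and dotted lines at 2-fold. Every bar crosses 0, and that of TNFSF9 reaches from -0.60 to 0.05.

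Ligands and receptors were then set side by side by known binding, including the family genes CD40LG, EDA, LTBR, EDAR and EDA2R, whose symbols fall outside the rule. Of 33 pairs, both partners reached a mean of 1 TPM in 3, the receptor alone in 13, the ligand alone in 5 and neither in 12. The pairs with both partners were TNFSF12 with TNFRSF12A, LTB with LTBR, and EDA with EDA2R. These states rest on the mean of each gene row and do not show that a working ligand was made. LTA, the partner of LTB, did not exceed 0.04 TPM in any library. EDA2R was 0.87 TPM in replicate 1 of control, and gene rows do not separate the isoforms of EDA. The pairs with a ligand alone were TNFSF9 with TNFRSF9, CD70 with CD27, TNFSF13 with TNFRSF13B and with TNFRSF17, and EDA with EDAR. The receptors CD40 and TNFRSF8 were expressed while CD40LG and TNFSF8 were listed at 0 in all libraries.

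**Figure D3:**
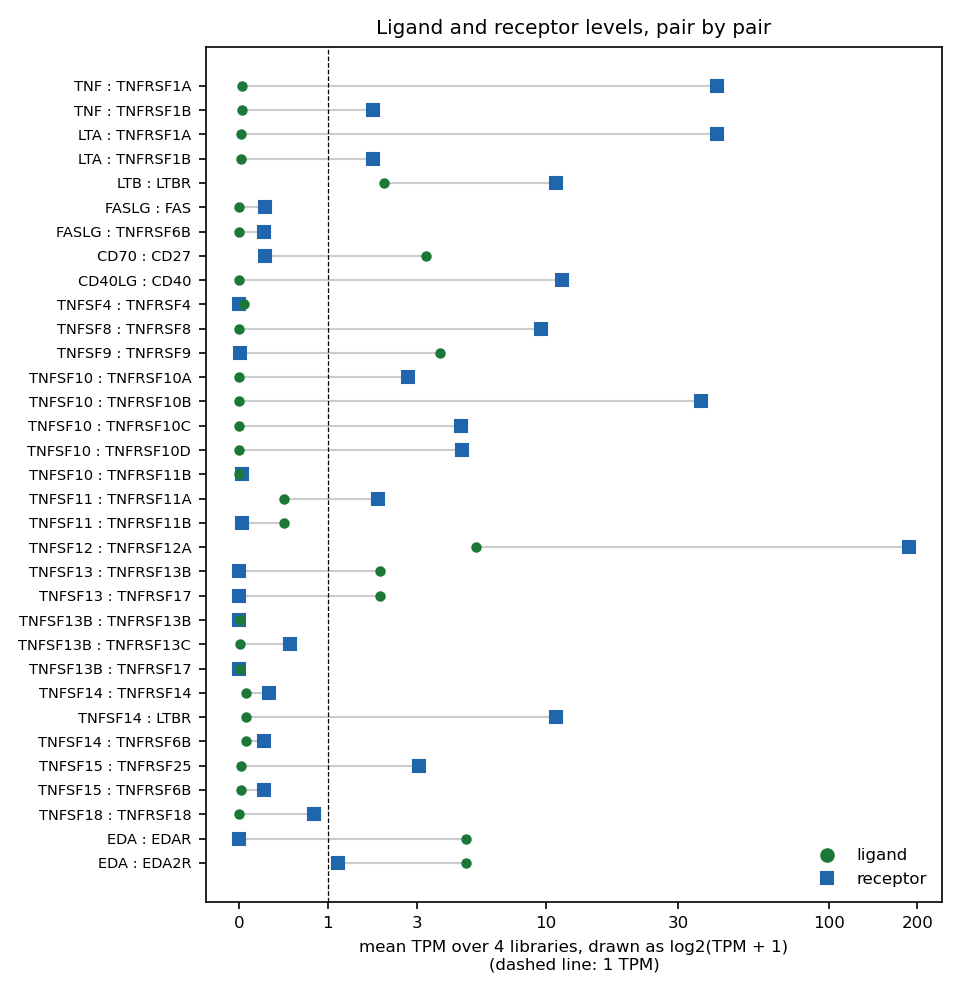
Mean level over all 4 libraries of the ligand (circle) and the receptor (square) of each of 33 pairs, on a log2(TPM + 1) axis labelled in TPM, with a dashed line at 1 TPM. Both symbols lie right of the line in 3 pairs, and TNFSF9 at 3.81 TPM stands opposite TNFRSF9 at 0.005 TPM.

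Of the 7 family genes outside the rule, 5 were expressed and none differed by the test. NGFR, the p75 neurotrophin receptor, was 13.28 and 13.16 TPM in control and 12.29 and 11.65 TPM in KO+OE, so its groups did not overlap, with a limma adjusted p of 0.938. LTBR, the lymphotoxin β receptor, was 11.54 and 8.98 TPM in control and 12.16 and 11.05 TPM in KO+OE. EDA, which acts in the development of skin appendages, was 4.3 to 5.57 TPM, RELT 2.58 to 3.29 TPM and EDA2R 0.87 to 1.34 TPM, all with overlapping groups. CD40LG and EDAR were listed at 0.

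Expressed and low members differed in the base composition of their transcripts, a property that the rule did not use. Among 39 members with a matched canonical transcript, the median GC content was 57.0% for the 17 expressed and 45.6% for 22 low members. None of the 11 members under 45% GC was expressed, against 6 of 9 between 45% and 55% and 11 of 19 at or above 55%. These bounds were chosen after the levels were known. Over 18770 protein-coding genes, 42% of those under 45% GC were expressed, 57.9% of those between and 68.9% of those at or above 55%. The medians over these genes were 51.9% GC for expressed and 45.7% for low genes. Median transcript length was 1968 bases for expressed and 1982 bases for low members. Whether GC content affected the measurement was not tested.

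**Figure D4:**
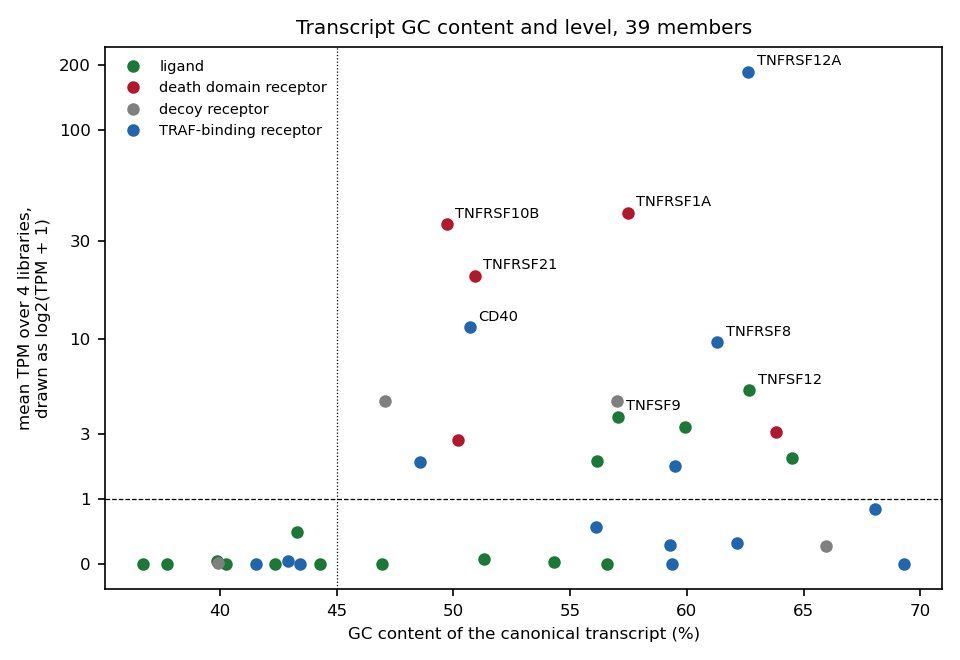
GC content of the canonical transcript in percent (horizontal) against the mean level over 4 libraries on a log2(TPM + 1) axis labelled in TPM (vertical) for 39 members, colored by role, with a dashed line at 1 TPM and a dotted line at 45% GC. All 11 members left of the dotted line lie under 1 TPM.

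Downstream of the receptors, 39 of 61 genes of a list of TNF signalling components were expressed, with none at an adjusted p under 0.05 by limma and 1 at an unadjusted p under 0.05. Of the 39, 19 had a higher and 20 a lower fitted level in KO+OE, and the median log2 fold change was -0.004. The unadjusted background was 5.33% of all genes tested. The groups did not overlap for 8 genes with lower and 6 with higher values in KO+OE, where the shares among all genes tested were 19.6% and 14.5%. NFKB2, which encodes the NF-κB precursor p100, was the gene at an unadjusted p under 0.05. It was 36.71 and 37.16 TPM in control and 33.11 and 33.2 TPM in KO+OE. The difference came to -0.15 on the log2 scale (limma p 0.0319, adjusted p 0.928). When any 1 of the 4 libraries was left out, its limma p was 0.0773 to 0.105. NFKBIB, an inhibitor of NF-κB, was 35.52 and 34.58 TPM in control and 32.39 and 31.78 TPM in KO+OE (limma adjusted p 0.931).

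TRAF4 was the highest of the TRAF adaptors, of which 3 of 6 were expressed, at 117.24 and 119.03 TPM in control and 109.1 and 114.15 TPM in KO+OE. FADD, the adaptor between death receptors and caspase-8, led the death machinery, of which 4 of 8 genes were expressed, at 38.27 and 38.91 TPM in control and 34.08 and 37.5 TPM in KO+OE. For both genes the KO+OE values lay below those of control, as they did for 19.6% of all genes tested. The limma adjusted p was 0.932 for TRAF4 and 0.938 for FADD. The gap within KO+OE for FADD, 0.13 on the log2 scale, was larger than its difference between groups, -0.11. Of 10 ubiquitin ligases and deubiquitinases, 6 were expressed, led by SHARPIN at 55.17 to 57.92 TPM. RNF31, the catalytic subunit of the linear ubiquitin ligase, was 38.1 and 45.88 TPM in control and 33.4 and 37.08 TPM in KO+OE (limma adjusted p 0.931).

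Of 13 kinases and their partners in the NF-κB and JNK branches, 9 were expressed, 8 with a higher and 1 with a lower fitted level in KO+OE. MAP2K7, a kinase of the JNK branch, had the highest level of that role and a log2 fold change of 0.0028. Its sign turned when replicate 1 of control or replicate 2 of KO+OE was left out. Of the others counted as higher, TAB1 and MAP3K14 were also near 0, at 0.0080 and 0.018. The share of higher values among all genes tested was not counted, so 8 against 1 was not tested as a trend. The log2 fold changes of the 9 ran from -0.013 to 0.28, and none had an unadjusted limma p under 0.05. Of 10 NF-κB target genes, 4 were expressed, led by ICAM1 at 26.25 and 28.27 TPM in control and 26.08 and 26.26 TPM in KO+OE. All 5 shedding and processing enzymes were expressed. FURIN, a proprotein convertase, led them at 30.72 and 30.93 TPM in control and 29.26 and 28.72 TPM in KO+OE. Of 9 NF-κB subunits and inhibitors, 8 were expressed, 2 with a higher and 6 with a lower fitted level, none past the adjusted p by limma.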

How the data were processed

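Poly(A)+ RNA from 2 control and 2 KO+OE libraries of H9 cells was sequenced as paired reads by the authors. The submitters' processing notes name HISAT2, featureCounts, Subread and DESeq2 and the build hg38, with no version. The role of each tool in this table, the strand setting and the annotation release are not given in the sources used here. The authors deposited 1 table, with 60671 Ensembl genes in rows, the 4 libraries in columns and no stated unit. The deposited values were read as TPM, because the columns hold decimals and sum to nearly equal totals just under that of TPM. TPM keeps no depth, so no count test was made and no counting error given, and because each total is fixed, a rise in abundant transcripts lowers the values of the rest. The table held 0 unmapped columns of sample values and no columns of comparisons made by the authors.

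Values were transformed as log2(TPM + 1), and the 12319 genes whose mean reached 1 TPM were compared between groups by limma 3.58.1 (R 4.3.3). The model held group alone, and the prior followed mean level. P-values were two-sided, with Benjamini-Hochberg adjustment across every tested gene. Fold changes on this scale understate those of low genes. On simulated data for this comparison with 12319 genes, the procedure recovered at least 98.7% of 4-fold changes at 10 TPM or more, with 0 to 5 false calls. Recovery of smaller changes, or at lower levels such as that of TNFSF9, was not measured.

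The members and gene lists were chosen with earlier results of these data known. The summed level of the blood cell markers is not reported here. Named were NUDT21, TNFSF9, members and other family genes that reached a mean of 1 TPM, partners and the 5 highest of the low members, and, of the signalling genes, the highest of each role and the 3 with the smallest p. Transcript length, GC content and windows of 100 bases shared with other genes came from GENCODE release 44 transcripts, matched by gene ID, and start regions from RefSeq (27 of 40 members had one). Figures were drawn with matplotlib 3.10.9. Alternatives were other pseudocounts, filters, scalings and priors, a replicate block, and leaving out each library.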

Additional observations from a re-analysis of the deposited data

How the results depend on the processing

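TNFSF9 was below control in KO+OE under all 12 alternatives that kept it, with a log2 fold change of -0.34 to -0.15 and a limma adjusted p of 0.852 to 0.960, and the filter at a mean of 5 TPM left it out. Leaving out 1 library gave -0.33 to -0.22. Without the mean-dependent prior its unadjusted p was 0.0261, and the number of members at an unadjusted p under 0.05 was then 1 in place of 0. No member reached an adjusted p under 0.05 under any of the 13 alternatives. The number of expressed members was 17 to 18 under the alternatives to the 1 TPM limit except at 5 TPM, where it was 7. The median log2 fold change of the members stayed between -0.07 and -0.01. For the signalling genes, the count at an unadjusted p under 0.05 was 3 with no filter on low values, 0 after quantile normalization, 0 without the mean-dependent prior, and 0 to 1 when 1 library was left out, against 1 in the comparison as reported. Without control replicate 2, KO+OE replicate 1 or KO+OE replicate 2 it was 0. The gene was NFKB2 as reported, but RNF31 (p 0.0202) without control replicate 1, where NFKB2 had a p of 0.0806.

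The sign of the log2 fold change turned for 10 of the 17 tested members when 1 library was left out, none of them called. Of the others, TNFRSF21 ranged from -0.11 to -0.0090, TNFRSF10A from -0.18 to -0.0084 and TNFRSF10B from -0.042 to -0.016. The ranges of those that turned were -0.037 to 0.0095 for TNFRSF12A, -0.041 to 0.17 for CD40, -0.070 to 0.18 for TNFRSF8, -0.12 to 0.077 for TNFRSF11A, -0.12 to 0.033 for TNFRSF1B, -0.12 to 0.14 for TNFRSF1A, -0.045 to 0.30 for TNFRSF25, -0.073 to 0.016 for TNFRSF10D, -0.029 to 0.24 for TNFRSF10C and -0.31 to 0.13 for TNFSF12. Outside the members they were -0.012 to 0.066 for NUDT21, -0.013 to 0.018 for MAP2K7, -0.083 to 0.24 for EDA2R and -0.049 to 0.21 for RELT. In these fits the lone library is assumed to vary like the other group. TNFRSF12A was also at 0.00080 after rescaling without mitochondrial genes, against -0.01. The cause of these turns was not tested.

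With replicate number as a block, TNFSF9 had a log2 fold change of -0.28 and a limma adjusted p of 0.873, and no member was called. The block gave 673 genes at an unadjusted p under 0.05 against 656. Among the signalling genes the block gave 1, RNF31 (p 0.0154), in place of NFKB2 (p 0.0527). Same-numbered libraries did not deviate together (r = -0.049 across 12319 genes, which are not independent replicates), so the numbers were not taken to pair the libraries. The members with a mean near 1 TPM are limited by an unknown depth, and 2 libraries a group allow no test for a library that stands apart.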
